A study of Mus musculus with 2 samples.

Results

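Cell division genes were followed in RNA of the RPE-choroid, a dissection that holds the retinal pigment epithelium (RPE) and the vascular coat behind it. The members are 41 named genes out of 23420 gene rows in the count table. The rule lists them by name and uses no measured value, but the list was drawn up with earlier results of these data known. It covers 8 G1 cyclins and kinases, 6 genes of the inhibitor and RB group, 7 DNA replication genes and 20 genes of G2 phase and mitosis. All 41 were found in the table, and 40 had enough counts to be tested. The exception was Cdkn2a, whose product p16 holds cells in G1 and whose highest count was 12.

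The libraries came from untreated mice 11 to 13 months old, 3 animals in each of 2 groups, with tissue of 2 eyes pooled per library. One group carries the genotype AhR -/- (strain B6.129-AhRtm1Bra/J), a germline targeted mutation of Ahr; the aryl hydrocarbon receptor it encodes is a transcription factor switched on by small molecules. The other group is C57BL6/J with the genotype AhR +/+. The single comparison sets one genotype against the other at this age.

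A cell enters division when D-type cyclins with their kinases Cdk4 and Cdk6 phosphorylate the retinoblastoma protein, which then releases E2F factors and allows the replication genes to be transcribed. Cyclin A and cyclin B with Cdk1 drive the later steps, and the anaphase-promoting complex, helped by Cdc20 and the ubiquitin-conjugating enzyme Ube2c, ends mitosis by marking cyclin B for breakdown. Adult RPE cells rarely divide. Basal cells of the corneal and conjunctival epithelium, at the front of the eye, and red cell precursors of the bone marrow are among the cells that divide throughout life.

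Genes of G2 and mitosis share promoter letters that the rule for choosing members did not use. The cell cycle genes homology region (CHR), the letters TTTGAA or TTCGAA, is known as the binding element of the MuvB complexes that silence these genes in resting cells and switch them on before mitosis, and CCAAT boxes near it bind NF-Y. RefSeq promoters of GRCm38.p6, from 250 bases before to 50 bases after the annotated start, were at hand for 32 of the 41 members. The promoters of the 4 G2 and mitosis members with the highest mean level among those with a CHR match are shown with that of Ube2c, to show where the letters lie. The 4 were picked by level and letters and not by their difference between groups, and Cdk1 and Mki67 are among the genes whose groups overlap. They run 5′ to 3′ on the gene's strand, and capitals mark matches, on either strand, to the CHR letters, to CCAAT, or to the E2F letters TTTCCCGC, TTTGGCGC, TTTCGCGC and TTTGCCGC.
Mki67 (chr7:135716330-135716629, minus strand): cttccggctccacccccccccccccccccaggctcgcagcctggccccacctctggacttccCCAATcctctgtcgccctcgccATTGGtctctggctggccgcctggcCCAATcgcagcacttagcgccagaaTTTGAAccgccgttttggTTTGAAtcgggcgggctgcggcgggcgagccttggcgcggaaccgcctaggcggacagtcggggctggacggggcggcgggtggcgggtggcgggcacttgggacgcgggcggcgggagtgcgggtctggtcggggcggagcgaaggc
Top2a (chr11:99024140-99024439, minus strand): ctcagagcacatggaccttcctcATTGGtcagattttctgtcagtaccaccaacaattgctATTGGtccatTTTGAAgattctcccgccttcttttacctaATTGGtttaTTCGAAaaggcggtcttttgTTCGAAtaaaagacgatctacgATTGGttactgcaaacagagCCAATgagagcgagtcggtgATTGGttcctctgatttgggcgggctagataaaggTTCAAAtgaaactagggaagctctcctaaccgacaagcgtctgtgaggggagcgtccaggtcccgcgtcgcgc
Cdk1 (chr10:69352863-69353162, minus strand): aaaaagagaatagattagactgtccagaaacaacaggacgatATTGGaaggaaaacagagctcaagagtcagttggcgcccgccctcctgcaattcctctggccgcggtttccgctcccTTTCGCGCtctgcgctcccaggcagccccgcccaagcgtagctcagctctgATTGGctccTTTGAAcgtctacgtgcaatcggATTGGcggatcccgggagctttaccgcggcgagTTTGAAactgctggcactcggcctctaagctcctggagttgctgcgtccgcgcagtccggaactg
Bub1b (chr2:118597961-118598260, plus strand): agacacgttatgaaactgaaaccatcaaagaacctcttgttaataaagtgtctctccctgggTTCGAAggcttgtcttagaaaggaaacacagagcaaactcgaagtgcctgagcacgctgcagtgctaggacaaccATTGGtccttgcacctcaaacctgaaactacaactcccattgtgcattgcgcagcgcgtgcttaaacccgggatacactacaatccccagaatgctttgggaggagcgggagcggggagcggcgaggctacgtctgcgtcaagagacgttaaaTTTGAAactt
Ube2c (chr2:164769679-164769978, plus strand): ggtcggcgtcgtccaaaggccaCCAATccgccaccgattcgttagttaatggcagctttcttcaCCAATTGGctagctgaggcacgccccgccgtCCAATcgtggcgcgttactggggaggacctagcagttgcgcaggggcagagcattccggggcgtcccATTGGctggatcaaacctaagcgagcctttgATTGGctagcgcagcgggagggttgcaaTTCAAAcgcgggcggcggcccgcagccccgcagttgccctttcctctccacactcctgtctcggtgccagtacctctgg

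A CHR match stood in 13 of the 16 G2 and mitosis promoters (81.2%), against 19.2% of all 32851 promoters of that length. Of the 20 CHR matches in those promoters, 7, in 6 genes, began within the 100 bases before the start. For Cenpf, Bub1, Aurka, Cenpa and Plk1 the only CHR match lay after the start. A CCAAT box stood in 15 of the 16 (93.8%), against 37.4% of all promoters. Both kinds of letters stood together in 13 of the 16 and in 7.52% of all promoters. The E2F letters were found in 1 of the 16 (6.25%), in 3 of the 7 DNA replication promoters (42.9%) and in 2.26% of all promoters. In the replication promoters, CHR letters were found in 1 of 7 and CCAAT in 6 of 7. No CHR match was found in the 6 promoters of 5 G1 members or the 6 of 4 members of the inhibitor and RB group. Birc5, Ccnb1 and Cenpe were the G2 and mitosis members without CHR letters in this window. A match is a description of letters and not a measured binding site.

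**Figure D1:**
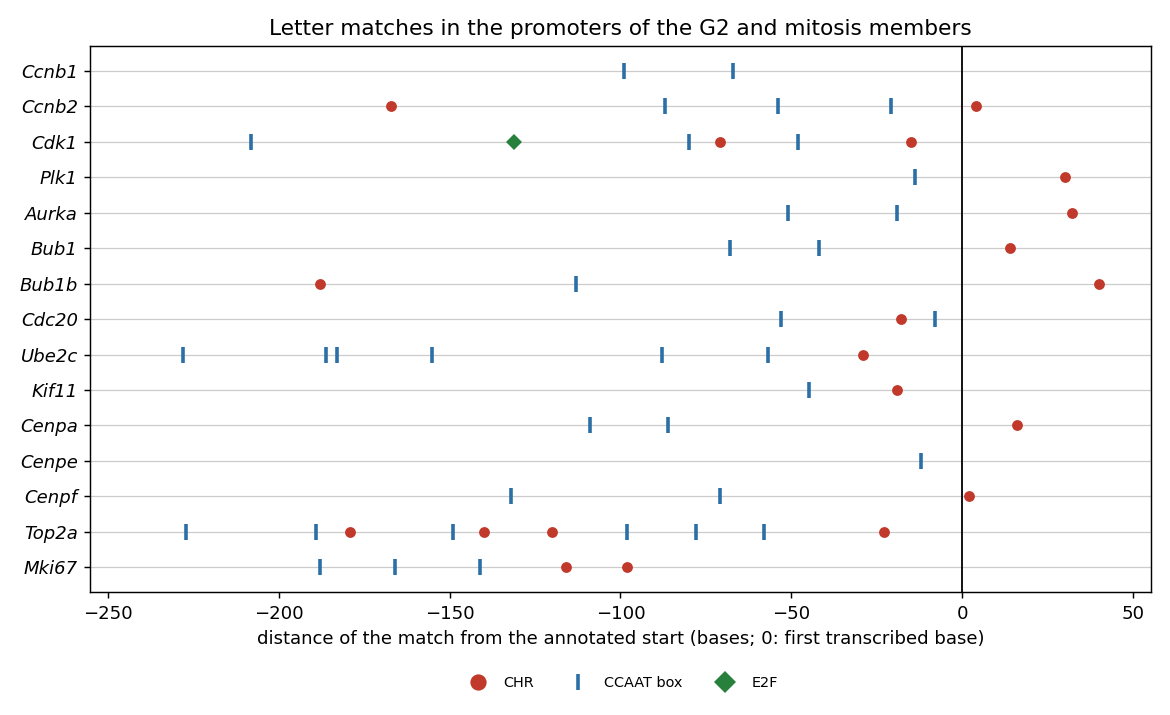
Positions of letter matches in the promoters of G2 and mitosis members, in bases from the annotated start on the x axis, with 1 line per gene. Circles mark CHR, bars CCAAT and diamonds E2F letters; 15 of 16 promoters hold a match, Birc5 holds none and is not drawn, and the single E2F match lies in Cdk1.

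Before the groups were compared, the libraries were checked. The libraries held from 18058725 to 28692624 reads assigned to genes. Alignments that were not unique made up 25.1%, 23.6% and 22.9% of all tallied reads in knockout-labelled animals 1, 2 and 3 and 18.7%, 19.4% and 19.1% in the wild type, without overlap, and the part of this difference in the results was not tested. Ahr stood at 41.4, 45.4 and 40.6 CPM (read counts scaled to the same total in each library) in knockout-labelled animals 1, 2 and 3, and at 19.7, 20.2 and 26.0 CPM across wild-type animals 1, 2 and 3 (log2 fold change 0.95, SE 0.16, edgeR adjusted p = 0.0991). A targeted allele can lack only some exons, which a gene-wide count cannot show, and the direction goes against a loss of transcript. Hence the word knockout-labelled is used throughout, and all directions given depend on those labels. RPE and endothelial markers were present in all 6 libraries, with Rpe65 between 1326 and 2987 CPM and Kdr between 122 and 173 CPM. The 8 RPE markers summed to 36110, 20730 and 22500 CPM across knockout-labelled animals 1, 2 and 3 and to 27670, 38120 and 33040 CPM in the wild type, lowest in knockout-labelled animals 2 and 3. Libraries stood apart in markers of other tissues. The 10 markers of cornea and conjunctiva epithelium summed to 3778, 15710 and 12170 CPM across knockout-labelled animals 1, 2 and 3, against 6369, 2638 and 3100 CPM in the wild type. The 9 red cell precursor markers in the table, of which Hba-a1 and Hba-a2 had no counts, summed to 1123 CPM in knockout-labelled animal 1, to 56.1 and 79.2 CPM in animals 2 and 3, and to between 4.59 and 34.2 CPM in the wild type. Xist was counted 19592 and 22457 times in animal 1 of the knockout-labelled and wild-type groups, and at most 98 times in the others. In RNA of a whole tissue, a different number of cells of a type and a different amount of RNA per cell cannot be told apart.

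Genes of G2 and mitosis stood higher in the knockout-labelled libraries, and Ube2c alone passed the test. All 20 had a log2 fold change above 0, from 0.60 (Bub1b) to 2.74 (Cenpf), with a median of 1.29. Over all 15796 genes tested, 51.2% lay above 0 and the median was 0.01. Called genes, those with an adjusted p under 0.05 in edgeR's quasi-likelihood test, numbered 1 of the 20 and 1 of the 40 members, against 0.0253% of all genes called as higher and 0.0506% called in either direction. At an unadjusted p under 0.05, 14 of the 20 stood higher, against 7.55% of all genes. For 14 of the 20 every knockout-labelled library lay above every wild-type one, as for 10.0% of all genes. Knockout-labelled animals 2 and 3 were both above the other 4 for 16 of the 20, against 16.5% of all genes.

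**Figure D2:**
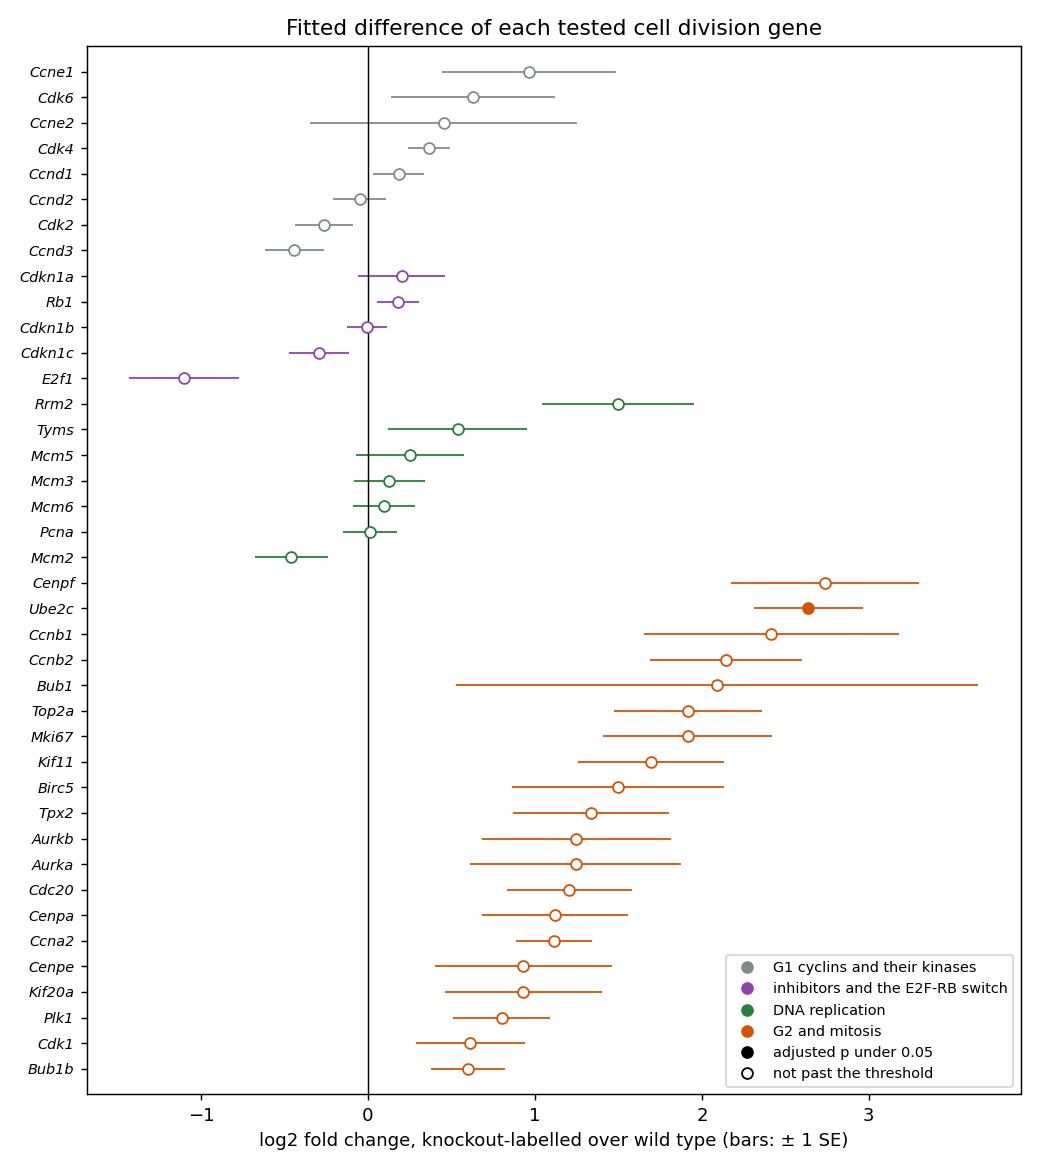
Log2 fold change of each of the 40 tested members, knockout-labelled over wild type, on the x axis, with bars of 1 standard error (SE) and genes grouped by role. All 20 G2 and mitosis genes lie right of 0, and the filled point is Ube2c, the member with an adjusted p under 0.05.

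Ube2c (GRCm38 chr2:164769898-164778822, plus strand) stood at 9.17, 12.1 and 17.6 CPM across knockout-labelled animals 1, 2 and 3, and at 2.29, 1.82 and 2.11 CPM across wild-type animals 1, 2 and 3. Every knockout-labelled library was above every wild-type library, with no overlap. The means were 12.9 ± 4.26 and 2.07 ± 0.24 CPM (SD, n = 3 each). The log2 fold change was 2.64 (SE 0.32, edgeR adjusted p = 0.0389), so Ube2c rose. Over the 18 alternatives and the main test the log2 fold change stayed between 2.19 and 2.92, while the adjusted p ran from 3.51e-10 (DESeq2) to 0.24, and Ube2c was called in 10 of the 19. The call ended without knockout-labelled animal 2 (adjusted p = 0.147) or 3 (0.24), and without wild-type animal 1 (0.0607), 2 (0.237) or 3 (0.17), in edgeR's quasi-likelihood test. Without knockout-labelled animal 1 it was 0.0105. The authors' deposited table gives Ube2c a log2 fold change of 2.65, with the sign turned to knockout-labelled over wild type, and an FDR of 1.41e-06.

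The Ube2c locus overlaps that of Tnnc2 (chr2:164777161-164779967, minus strand), which encodes the calcium-binding troponin subunit of fast skeletal muscle. Both genes span the same 1662 bases in GENCODE M21, and 592 exon bases are shared, 22.8% of the 2600 exon bases of Ube2c. These 592 bases lie in the last exon of transcript Ube2c-201, while transcript Ube2c-202 shares 0 bases with Tnnc2. Tnnc2 stood at 75.6, 164 and 60.6 CPM across knockout-labelled animals 1, 2 and 3 and at 37.1, 52.0 and 111 CPM across wild-type animals 1, 2 and 3. The groups overlapped (log2 fold change 0.58, SE 0.44, edgeR adjusted p = 0.594). Ube2c was highest in knockout-labelled animal 3, where Tnnc2 was below its level in wild-type animal 3. Wild-type animal 3 had the second highest Tnnc2 level and a Ube2c level between those of the other wild-type libraries. The 12 fast skeletal muscle markers, of which Myh13 had no counts, summed to between 1814 and 4813 CPM in the knockout-labelled and between 1103 and 3461 CPM in the wild-type libraries. The strand setting of the counting is not given in the sources used here, so reads in the shared bases cannot be assigned with certainty.

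**Figure D3:**
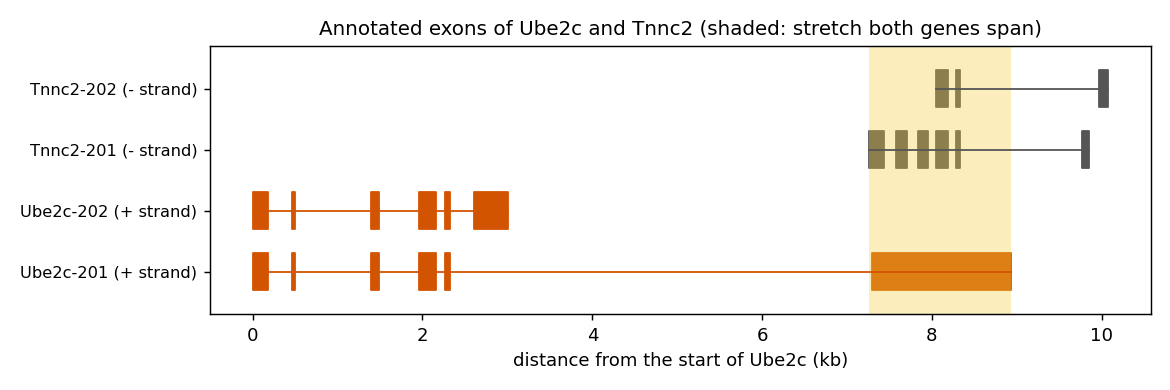
Annotated transcripts of Ube2c and Tnnc2, with distance from the start of Ube2c in kb on the x axis, boxes for exons and lines for introns. The shaded stretch of 1662 bases is spanned by both genes, and the long last exon of Ube2c-201 fills most of it.

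Common markers of proliferation were highest in knockout-labelled animals 2 and 3. Mki67, which encodes Ki-67, the coat protein of mitotic chromosomes, stood at 13.5, 39.4 and 42.3 CPM across knockout-labelled animals 1, 2 and 3 and at 14.5, 6.12 and 4.60 CPM across wild-type animals 1, 2 and 3. Knockout-labelled animals 2 and 3 were high, while animal 1 lay below wild-type animal 1, so the groups overlapped (log2 fold change 1.92, SE 0.51, edgeR adjusted p = 0.185). Top2a, the topoisomerase that untangles sister chromatids, stood at 13.8, 34.8 and 46.1 CPM against 11.3, 4.67 and 9.05 CPM. Its groups did not overlap, but knockout-labelled animal 1 was near wild-type animal 1 (log2 fold change 1.92, SE 0.45, edgeR adjusted p = 0.152). Cenpf, a protein of the outer kinetochore, stood at 4.82, 14.7 and 22.2 CPM against 3.05, 2.02 and 1.18 CPM. It had the highest log2 fold change of the 40 (2.74, SE 0.56, edgeR adjusted p = 0.128).

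The cyclins of G2 and mitosis stood higher in every knockout-labelled library. Ccnb2, a cyclin B, stood at 4.15, 11.4 and 14.5 CPM across knockout-labelled animals 1, 2 and 3 and at 2.22, 2.60 and 1.97 CPM in the wild type (log2 fold change 2.14, SE 0.46, edgeR adjusted p = 0.138). Ccnb1, the main mitotic cyclin, stood at 2.47, 1.87 and 5.88 CPM against 0.30, 1.24 and 0.38 CPM (2.42, SE 0.76, adjusted p = 0.231). For both the groups did not overlap. Ccna2, the cyclin of S and G2 phase, stood at 28.4, 29.3 and 32.0 CPM against 12.4, 10.3 and 18.7 CPM. In contrast to Mki67, Ccna2 was as high in knockout-labelled animal 1 as in animals 2 and 3, and its groups did not overlap (1.12, SE 0.23, edgeR adjusted p = 0.128). Ccna2 shares 510 exon bases with Exosc9 on the opposite strand, 12.5% of its exons, so its count is uncertain in the same way. Cdk1, the kinase these cyclins drive, stood at 19.1, 13.0 and 35.6 CPM against 16.1, 14.8 and 13.4 CPM. Knockout-labelled animal 2 had the lowest Cdk1 level of the 6 and animal 3 the highest (0.61, SE 0.33, edgeR adjusted p = 0.432).

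Of the kinases and checkpoint genes of mitosis, Plk1, Aurkb, Birc5, Bub1b and Cdc20 had no overlap between the groups. Plk1, a kinase of mitotic entry, stood at 5.91, 8.45 and 9.06 CPM against 4.81, 4.09 and 4.53 CPM (log2 fold change 0.80, SE 0.29, edgeR adjusted p = 0.276). Aurka, the kinase of the spindle poles, stood at 1.13, 7.96 and 6.16 CPM against 1.92, 2.60 and 1.90 CPM. Knockout-labelled animal 1 was the lowest of the 6 for Aurka. Aurkb, the kinase of the chromosomal passenger complex, ran from 2.36 to 5.16 CPM against 0.86 to 2.22 CPM. Birc5, its partner survivin, stood at 4.99, 5.60 and 10.5 CPM against 4.85, 0.66 and 1.94 CPM, so wild-type animal 1 nearly reached the knockout-labelled range. Bub1b, of the spindle checkpoint, stood at 17.3, 16.8 and 25.1 CPM against 11.6, 12.4 and 15.2 CPM (0.60, SE 0.22, edgeR adjusted p = 0.284). Its relative Bub1 was counted 0, 23 and 31 times in knockout-labelled animals 1, 2 and 3 and 11, 4 and 0 times in the wild type, too few for a firm value. Cdc20, the activator of the anaphase-promoting complex which works with Ube2c, stood at 9.72, 10.9 and 16.3 CPM against 7.82, 5.25 and 2.97 CPM (1.21, SE 0.37, edgeR adjusted p = 0.224).

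Among the spindle and centromere genes, Kif11, the motor that separates the spindle poles, stood at 5.36, 13.6 and 16.7 CPM against 5.04, 3.10 and 2.83 CPM (log2 fold change 1.70, SE 0.44, edgeR adjusted p = 0.18). Tpx2, which activates Aurka on the spindle, stood at 3.27, 5.71 and 11.2 CPM against 3.05, 2.19 and 2.73 CPM. For both, knockout-labelled animal 1 was only just above the highest wild-type library. Cenpa, the histone variant of centromeres, stood at 3.31, 5.21 and 7.05 CPM against 2.07, 3.31 and 1.80 CPM. Cenpa counts as without overlap, but knockout-labelled animal 1 and wild-type animal 2 were all but equal (79 and 80 reads). Kif20a, a motor of cytokinesis, stood at 3.48, 5.60 and 7.98 CPM against 3.38, 4.05 and 1.52 CPM. Cenpe, the kinetochore motor, stood at 3.77, 8.45 and 16.8 CPM against 7.67, 4.50 and 3.04 CPM. The groups overlapped for Kif20a and Cenpe. Kif20a shares 1271 exon bases (29.3%) with Cdc23 on the opposite strand. Aurka, Aurkb, Birc5, Tpx2, Cenpa, Kif20a and Cenpe had log2 fold changes between 0.93 and 1.5, with edgeR adjusted p between 0.258 and 0.464. Ccnb1 and Ccnb2, and among the other roles Ccnd3, Pcna and Tyms, have named pseudogenes, so their reads could be split between copies.

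Library by library, the 20 G2 and mitosis genes summed to 157, 248 and 349 CPM across knockout-labelled animals 1, 2 and 3 and to 117, 87.2 and 90.7 CPM across wild-type animals 1, 2 and 3. The means were 251 ± 96.4 and 98.3 ± 16.3 CPM (SD, n = 3 each). Without Ube2c the sums were 147, 236 and 332 CPM against 115, 85.4 and 88.6 CPM, so every knockout-labelled library was above every wild-type library with or without that gene. Knockout-labelled animal 3 was the highest of the 6 for 18 of the 20 genes and animal 2 for the other 2. Over all 15796 genes tested, animal 3 was the highest for 2475 and animal 2 for 3854. In knockout-labelled animals 1, 2 and 3, 15, 19 and 20 of the 20 genes lay above all 3 wild-type libraries, against 28.2%, 34.8% and 32.3% of all genes. In the wild type, animal 1 was the highest of the 3 for 13 of the 20, a count that was not made over all genes.

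The cornea and conjunctiva markers moved with these genes. Of those 10 markers edgeR called 0, and 9 had an unadjusted p under 0.05, all higher, against 7.55% of all genes. Knockout-labelled animals 2 and 3 were the highest 2 libraries for all 10 of those markers, against 16.5% of all genes. Wild-type animal 1 was the highest wild-type library in the marker sum. Krt12, the keratin of the corneal surface, was at 206, 4103 and 2903 CPM across knockout-labelled animals 1, 2 and 3 and at 805, 511 and 302 CPM in the wild type. The 2 orders were not the same. Animal 2 had the higher marker sum and animal 3 the higher G2 and mitosis sum. Knockout-labelled animal 1 had a cornea marker sum within the wild-type range and a G2 and mitosis sum above it. That library was the one with 1123 CPM of red cell precursor markers. With the mean log2 CPM of the cornea markers as a covariate, the median log2 fold change of the G2 and mitosis genes was 0.64 in place of 1.29. Of the 20, 17 lay above 0, and 4 had an unadjusted p under 0.05, a count not made over all genes in that fit. Called members numbered 0, against 0.127% of all genes. In that fit Ube2c was at 2.19 (edgeR adjusted p = 0.0912), Ccna2 at 1.07, Ccnb1 at 2.95 and Cenpf at 1.38. Mki67 went to 0.62, Top2a to 0.72 and Aurka to -0.36. The RPE markers were lowest in the same 2 libraries, with Rpe65 at 2987, 1326 and 1423 CPM against 2201, 2685 and 2394 CPM. The 5 Schwann cell markers summed to 676, 453 and 436 CPM against 613, 660 and 635 CPM, lowest in those 2 as well. The part of RPE or Schwann cells in the differences was not tested. The covariate, the mean log2 CPM of the cornea markers, was 7.7, 9.4 and 9.1 in knockout-labelled animals 1, 2 and 3. In wild-type animals 1, 2 and 3 it was 8.2, 6.9 and 7.3. The covariate thus differs partly with genotype, and with 6 libraries the fit cannot tell them apart. The part of corneal or conjunctival cells in the differences was not tested.

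Single libraries moved the counts. Without knockout-labelled animal 1, 9 of the 20 G2 and mitosis genes were called, all higher (Ccna2, Ccnb2, Aurka, Ube2c, Kif11, Tpx2, Cenpf, Top2a and Mki67), against 2.55% of all genes. With the mean log2 CPM of red cell precursor markers as a covariate, 8 of the 20 were called, all higher, against 4.79%, and the median was 1.86. That fit also called Rrm2 as higher and Ccnd3 and Cdkn1c as lower. Over all genes it called 1473 of 15796 in either direction, 756 of them higher and the rest lower. Without knockout-labelled animal 3, 7 of the 20 had an unadjusted p under 0.05 and 0 were called. The count at that unadjusted p was not made over all genes in that fit. Without any 1 of the 6 libraries all 20 stayed above 0, and the median lay between 1.07 and 1.68. DESeq2 called 8 of the 20 (Ccna2, Ccnb1, Ccnb2, Ube2c, Kif11, Cenpf, Top2a and Mki67), against 1.80% of all genes called as higher, and the edgeR exact test called the same genes other than Ccnb1, against 1.32%. The authors' deposited table has an FDR under 0.05 for 8 members, all higher in the knockout-labelled group: Rrm2 and these 7. Of the 16561 genes in the authors' deposited table, 1.62% pass that FDR in that direction.

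**Figure D4:**
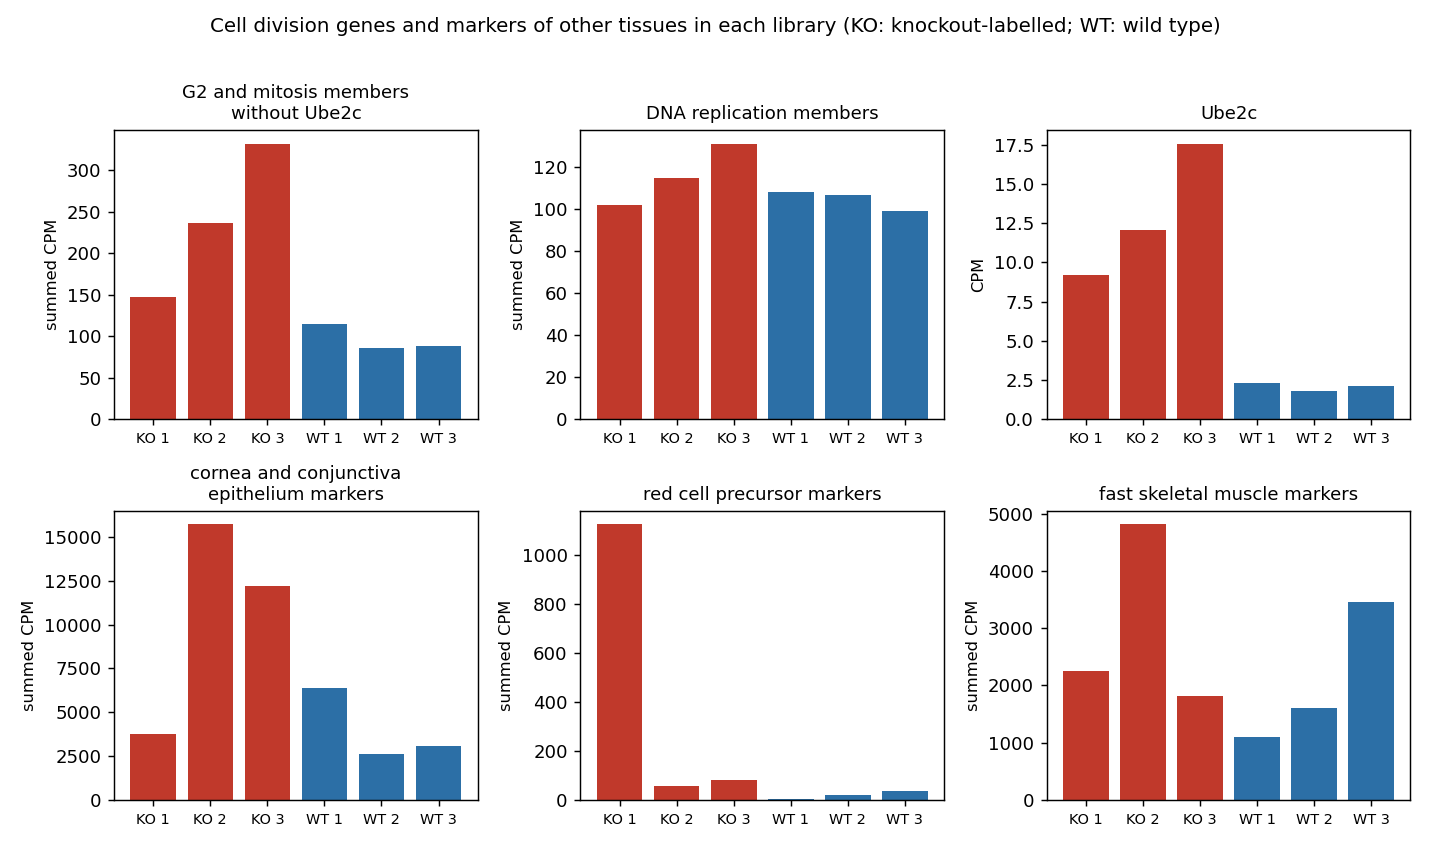
Levels in each library, in CPM or summed CPM on y axes that start at 0, for G2 and mitosis members without Ube2c, DNA replication members, Ube2c, and markers of cornea and conjunctiva epithelium, red cell precursors and fast skeletal muscle. Red bars are knockout-labelled (KO) and blue bars wild-type (WT) animals 1 to 3. The G2 and mitosis sum is highest in KO 2 and KO 3, where the cornea markers are highest too. KO 1 is by far the highest in red cell precursor markers, and KO 2 and KO 3 also lie above every WT library.

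The DNA replication genes did not share this pattern as a group. Of the 7 members edgeR called 0, and the median log2 fold change was 0.13. At an unadjusted p under 0.05, 1 (Rrm2) stood higher, against 7.55% of all genes. Above 0 lay 6 of the 7, against 51.2% of all genes. Their summed level was 102, 115 and 131 CPM across knockout-labelled animals 1, 2 and 3 and 108, 107 and 98.8 CPM in the wild type, so the groups overlapped. For the helicase genes the groups overlapped other than for Mcm2. Mcm3 stood at 12.6 ± 0.44 and 11.5 ± 2.12 CPM and Mcm6 at 21.9 ± 1.48 and 20.5 ± 3.87 CPM (SD, n = 3 each), with log2 fold changes of 0.13 (SE 0.21) and 0.10 (SE 0.19). Mcm5 stood at 10.7 ± 3.80 and 9.01 ± 2.06 CPM (SD, n = 3 each). Mcm2 lay lower in every knockout-labelled library, at 9.59, 8.29 and 9.79 CPM against 14.4, 10.9 and 12.8 CPM (-0.46, SE 0.22, edgeR adjusted p = 0.38). Pcna, the sliding clamp of the polymerase, stood at 42.5, 33.6 and 48.3 CPM against 37.4, 43.1 and 43.1 CPM (0.01, SE 0.16).

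The nucleotide enzymes came nearer to the mitotic pattern. Rrm2, the S phase subunit of ribonucleotide reductase, stood at 6.66, 16.4 and 13.9 CPM across knockout-labelled animals 1, 2 and 3 and at 6.88, 2.27 and 3.87 CPM in the wild type. Animals 2 and 3 were high and animal 1 lay below wild-type animal 1 (log2 fold change 1.5, SE 0.46, edgeR adjusted p = 0.219). Tyms, thymidylate synthase, stood at 3.35, 8.40 and 11.1 CPM against 4.51, 5.33 and 5.87 CPM (0.54, SE 0.42, edgeR adjusted p = 0.602). For Tyms, knockout-labelled animal 1 was the lowest of the 6. DESeq2 called Rrm2, as did edgeR without knockout-labelled animal 1 or with the red cell precursor covariate. The authors' deposited table gives Rrm2 a log2 fold change of 1.45 and an FDR of 0.0373. With the cornea marker covariate Rrm2 was at 0.44 and Tyms at -0.26, and the median of the 7 was -0.08.

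**Figure D5:**
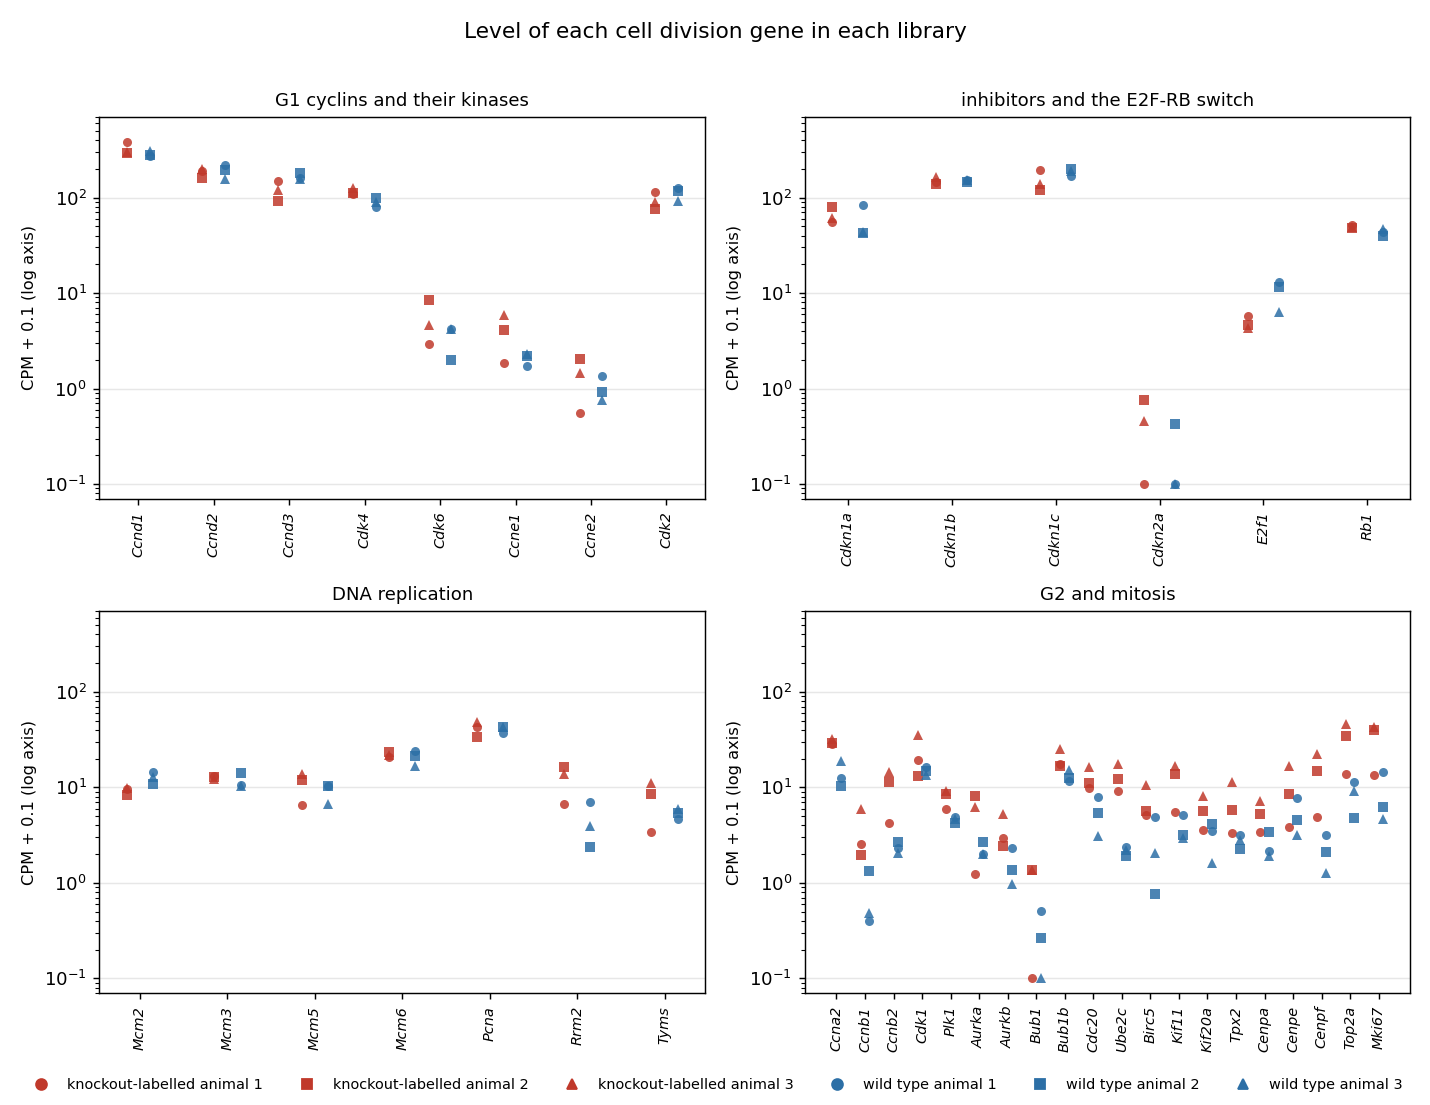
Level of each of the 41 members in each library, as CPM + 0.1 on a log axis, in 4 panels by role. Knockout-labelled libraries are red and wild-type libraries blue, with the shape giving the animal; in the panels of G1 genes and inhibitors both colours mix for most genes, while in the mitosis panel the red squares and triangles of animals 2 and 3 lie above the blue points for most genes.

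Most genes that hold or release the G1 brake stood above the mitotic genes in both groups, measured per kilobase. Per kilobase of exon, the highest wild-type levels of these roles were those of Cdkn1c (91.0 CPM per kb) and Ccnd1 (60.8 CPM per kb), and the median of the G1 members was 18.3. The median of the G2 and mitosis members was 0.76 CPM per kb in the wild type, with Ccna2 highest at 3.38, and 2.04 CPM per kb in the knockout-labelled libraries. Cyclin D1 is also expressed by cells that are not dividing, and Cdkn1c (p57) and Cdkn1b (p27) are inhibitors of cells that have left the cycle.

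Of the 8 G1 cyclins and kinases, 0 were called in either direction by edgeR, DESeq2 or the exact test. At an unadjusted p under 0.05, 1 stood higher (Cdk4) and 1 lower (Ccnd3), against 7.55% and 6.62% of all genes. Above 0 lay 5, against 51.2% of all genes, 3 lay below, and the median log2 fold change was 0.27. Ccnd1 stood at 385, 292 and 299 CPM across knockout-labelled animals 1, 2 and 3 and at 272, 279 and 309 CPM in the wild type (0.18, SE 0.15). Ccnd2 overlapped as well (183 ± 21.1 and 190 ± 31.0 CPM, SD, n = 3 each). Ccnd3 lay lower in every knockout-labelled library, at 150, 92.6 and 120 CPM against 160, 178 and 154 CPM (-0.44, SE 0.18, edgeR adjusted p = 0.313). It was called as lower without knockout-labelled animal 1, where 2.40% of all genes were, and not in the main test of all 6 libraries. With the red cell precursor covariate Ccnd3 was called as lower too. That fit called 1473 of 15796 genes in either direction, 756 of them higher and the rest lower. All 3 members without overlap in the lower direction were Ccnd3, E2f1 and Mcm2, against 9.96% of all genes, and 2 of them, Ccnd3 and E2f1, had an unadjusted p under 0.05, against 6.62%. Cdk4 lay higher in every one, at 109, 110 and 126 CPM against 79.9, 99.3 and 88.6 CPM (0.37, SE 0.13, edgeR adjusted p = 0.257), and shares 641 exon bases (19.7%) with Tspan31 on the opposite strand.

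Cdk6, the other partner of the D cyclins, stood at 5.25 ± 2.85 and 3.38 ± 1.28 CPM (SD, n = 3 each). Ccne1, an E cyclin that starts S phase with Cdk2, stood at 1.76, 4.01 and 5.76 CPM against 1.62, 2.11 and 2.18 CPM (0.96, SE 0.52, edgeR adjusted p = 0.439). Its 2 high libraries were again knockout-labelled animals 2 and 3. Ccne2 stood at 1.25 ± 0.74 and 0.91 ± 0.30 CPM (SD, n = 3 each). Cdk2 stood at 113, 75.4 and 89.8 CPM against 125, 116 and 92.7 CPM (-0.26, SE 0.17). Knockout-labelled animals 2 and 3 were the lowest 2 for Cdk2, whose exons meet those of the pigment gene Pmel on the opposite strand over 34 bases. Opposite-strand genes also share exon bases with Ccnd1 (LTO1, 23.4% of its exon bases), Ccne2 (Ints8, 17.4%) and Cdkn1c (Gm44732, 30.7%).

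Of the inhibitors and the RB group, 0 of 5 tested genes were called by edgeR, DESeq2 or the exact test, and the median was -0.01. At an unadjusted p under 0.05, 1 (E2f1) stood lower, against 6.62% of all genes. E2f1, an activator E2F, lay lower in every knockout-labelled library, at 5.66, 4.56 and 4.19 CPM against 13.1, 11.6 and 6.29 CPM. Its means were 4.80 ± 0.76 and 10.3 ± 3.55 CPM (SD, n = 3 each; log2 fold change -1.10, SE 0.33, edgeR adjusted p = 0.215). E2f1 lay on the opposite side of 0 from all 20 G2 and mitosis members. Rb1 stood at 51.0, 47.9 and 48.6 CPM against 43.7, 39.9 and 46.5 CPM (0.18, SE 0.12, edgeR adjusted p = 0.55), without overlap. Cdkn1b overlapped at 149 ± 13.2 and 150 ± 4.48 CPM, and Cdkn1c stood at 151 ± 38.0 and 186 ± 15.5 CPM (SD, n = 3 each). With the red cell precursor covariate Cdkn1c was called as lower. That fit called 1473 of 15796 genes in either direction, 756 of them higher and the rest lower. Cdkn1a, the p53 target p21, stood at 55.7, 79.0 and 61.4 CPM against 83.6, 42.7 and 43.9 CPM, with wild-type animal 1 the highest. Cdkn2a was counted 0, 12 and 9 times in knockout-labelled animals 1, 2 and 3 and 0, 8 and 0 times in the wild type, and was not tested.

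Other genes of the cycle were read from lists that share no gene with the members. Of 52 tested mitosis genes outside the members, edgeR called 0, DESeq2 9 and the exact test 5, all higher, against 0.0253%, 1.80% and 1.32% of all genes. Above 0 lay 47, against 51.2% of all genes, and the median was 1.21. At an unadjusted p under 0.05, 26 stood higher, against 7.55%, and 0 lower, against 6.62%. Knockout-labelled animals 2 and 3 were above the other 4 libraries for 36 of the 52, against 16.5% of all genes. The 3 with the lowest p were Prc1, a bundler of spindle microtubules (11.1, 18.7 and 29.7 CPM against 8.08, 4.13 and 3.39 CPM), Kif2c, a kinetochore motor, and Ncaph, of condensin. Their log2 fold changes were 1.93 (SE 0.43), 2.00 (SE 0.50) and 1.73 (SE 0.47), with edgeR adjusted p of 0.144, 0.173 and 0.185. All 3 were above every wild-type library in knockout-labelled animal 1 as well, with Kif2c at 3.77, 2.80 and 5.44 CPM against 1.09, 1.07 and 0.83 CPM. The genes of the list with the highest CPM were Bub3 and Pttg1, at 0.26 (SE 0.12) and 0.05 (SE 0.12). With the cornea marker covariate the median of the list was 0.23, with 6 genes higher and 1 lower at an unadjusted p under 0.05, and without knockout-labelled animal 1 edgeR called 14 of 54, all higher, against 2.55% of all genes. Without knockout-labelled animal 3, 12 of 52 had an unadjusted p under 0.05, and without wild-type animal 3, 16 of 54. Counts at that p over all genes were made for neither fit, nor for the cornea covariate fit.

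Of 36 tested replication genes outside the members, edgeR called 0, 25 lay above 0, against 51.2% of all genes, and the median was 0.17. At an unadjusted p under 0.05, 1 (Rfc3, of the clamp loader) stood higher, against 7.55% of all genes. Fen1, the flap nuclease, and Rrm1, the large subunit of ribonucleotide reductase, followed at 0.53 (SE 0.26) and 0.48 (SE 0.24). Those with the highest CPM, Brca1 and Slbp, were at -0.29 (SE 0.20) and 0.18 (SE 0.15). DESeq2 and the exact test called 0 of the 36.

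Of 16 genes of RB, E2F and the DREAM complex, which holds mitotic genes silent in resting cells, 0 were called by edgeR, DESeq2 or the exact test. Of the 16, 3 stood higher and 0 lower at an unadjusted p under 0.05, against 7.55% and 6.62% of all genes, and the median was 0.23. E2f2 stood at 9.97, 2.31 and 3.06 CPM across knockout-labelled animals 1, 2 and 3 and at 1.17, 1.94 and 0.59 CPM in the wild type (log2 fold change 2.06, SE 0.69, edgeR adjusted p = 0.244). Its highest library was the one richest in red cell precursor markers. E2f8, a repressor E2F induced in S phase, stood at 1.51, 5.38 and 5.08 CPM against 1.13, 1.36 and 0.35 CPM, high in animals 2 and 3 (2.08, SE 0.70, edgeR adjusted p = 0.247). Tfdp1, the dimer partner of E2Fs, stood at 21.3, 22.9 and 18.8 CPM against 15.0, 13.6 and 14.8 CPM, without overlap (0.54, SE 0.17, edgeR adjusted p = 0.232). Rbbp4 and Rbl2, the highest in CPM, were at 0.26 (SE 0.14) and -0.17 (SE 0.11).

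Of 14 other inhibitors and p53 targets, edgeR called 0 and DESeq2 1 (Gadd45g, lower). DESeq2 called 493 of 15179 genes in either direction, 273 of them higher and the rest lower. At an unadjusted p under 0.05 in edgeR 2 stood higher, against 7.55% of all genes, and 2 lower, against 6.62%. The median was 0.04. Gadd45g, a stress inhibitor of the cycle, stood at 19.2, 16.0 and 18.5 CPM against 25.2, 33.1 and 28.4 CPM (-0.69, SE 0.17, edgeR adjusted p = 0.172), and Trp53 at 25.9, 28.4 and 19.8 CPM against 42.0, 34.3 and 34.3 CPM (-0.58, SE 0.18, edgeR adjusted p = 0.219). Both lay lower in every knockout-labelled library, the only 2 of the 14 to do so, against 9.96% of all genes. Cdkn2b, the G1 inhibitor p15, stood at 4.57, 11.2 and 12.8 CPM against 5.08, 3.02 and 2.35 CPM, high in animals 2 and 3 (1.45, SE 0.45, edgeR adjusted p = 0.224). Ccng1 and Mdm2, the highest in CPM, were at 0.35 (SE 0.18) and -0.17 (SE 0.12).

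Of 15 other cyclins and kinases, 0 were called by edgeR, DESeq2 or the exact test, and the median was 0.12. At an unadjusted p under 0.05, 2 stood higher and 1 lower, against 7.55% and 6.62% of all genes. Ccnt1, Cdk8 and Ccng2 had the lowest p (-0.81, 0.38 and 0.47), and Cdk5 and Cdk16, the highest in CPM, were at -0.05 each. Of 15 subunits and partners of the anaphase-promoting complex, the machine that Ube2c and Cdc20 serve, 0 were called by edgeR, DESeq2 or the exact test. At an unadjusted p under 0.05, 1 stood higher, against 7.55% of all genes. Above 0 lay 6, against 51.2% of all genes, 9 lay below 0 and the median was -0.02. Ube2d1, another ubiquitin-conjugating enzyme, stood at 40.2, 47.0 and 48.8 CPM against 30.0, 26.7 and 34.8 CPM (0.57, SE 0.15, edgeR adjusted p = 0.185). Anapc11 and Fbxo5 were at -0.32 (SE 0.15) and 0.59 (SE 0.43), and Anapc5 and Anapc1, the highest in CPM, at -0.01 (SE 0.14) and -0.09 (SE 0.12). The summed level of the 15 was 957 ± 11.9 and 983 ± 20.8 CPM (SD, n = 3 each), with overlap of the groups.

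Markers of other cells that divide or come with blood were read the same way. The 10 neutrophil and granulocyte markers summed to 138, 73.3 and 92.1 CPM across knockout-labelled animals 1, 2 and 3 and to between 10.6 and 24.2 CPM in the wild type, with the marrow genes Mpo, Elane and Ngp at 0 counts in all 6 libraries. Of these markers 6 were tested, and edgeR called Ltf, which encodes lactoferrin, against 0.0253% of all genes called as higher. Ltf stood at 88.0, 46.0 and 62.2 CPM against 6.62, 1.82 and 3.25 CPM (log2 fold change 4.07, SE 0.44, edgeR adjusted p = 0.0389). Most of the marker sum in each knockout-labelled library was therefore that of Ltf alone. Of the 6 tested, 4 stood higher at an unadjusted p under 0.05, against 7.55% of all genes, and 1 lay below 0. No overlap in the higher direction was seen for 4 of the 6, against 10.0% of all genes. The 9 lymphocyte markers summed to between 17.5 and 36.9 CPM and between 14.6 and 19.3 CPM, and the 8 macrophage markers to between 2263 and 2702 CPM and between 1800 and 2806 CPM. The 9 endothelial markers summed to 963, 751 and 641 CPM against 967 to 1039 CPM, lowest in the libraries where the G2 and mitosis sum was highest. The part of these cells in the differences was not tested.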

How the data were processed

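RNA was sequenced from 6 RPE-choroid libraries, 3 per group, made with polyA enrichment, per the labels' protocols. The deposited counts are whole numbers per gene that the authors made with HTSeq; the submitters' processing notes also name TopHat, Bowtie and the mm10 build. Tool versions, annotation and strand setting: not given in the sources used here. The authors' deposited comparison table holds log2 fold changes (wild type over knockout-labelled; sign turned here) and mean log2 CPM. Its p-values and FDR were computed by the authors before deposit; the submitters' processing notes name edgeR without its role. The count table has 23420 gene rows. Its 5 tally rows, between 35.2% and 40.4% of each library, were left out; 27 names read as dates.

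Here counts were tested with edgeR 4.0.16 (R 4.3.3): filterByExpr (minimum count 10, total 15), TMM scaling and the quasi-likelihood test (glmQLFit, glmQLFTest) of a model that holds genotype alone; p-values were adjusted by Benjamini-Hochberg across 15796 genes. SE is the absolute log2 fold change over the square root of F. CPM uses TMM-adjusted sizes. The code was tested on simulated data. Alternatives used DESeq2 1.42.0, limma-voom 3.58.1, the exact test, other scalings and filters, covariates, a GC correction (14820 genes) and left-out libraries. Xist was counted over 1000 times in animal 1 of each group, which set that covariate.

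Members and lists were chosen with earlier results of these data known. All members may be named; from other lists, the called genes or else the 3 with the lowest p and the 2 with the highest level, and up to 3 abundant markers. Single genes outside that rule were named after their values were seen. Loci and exon lengths come from GENCODE M21 and promoters from RefSeq, both GRCm38, the assembly of mm10. Nothing says that the animals of a group came from separate litters, so p-values measure the spread between these samples. No library repeated another within sampling noise.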

Additional observations from a re-analysis of the deposited data

How the results depend on the processing

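Against 1 of 40 members and 8 of 15796 genes called in the test of all 6 libraries, DESeq2 called 9 and 493, the exact test 7 and 352, limma-voom 0 and 13, the red cell precursor covariate 11 and 1473, the cornea marker covariate 0 and 20, and the Xist covariate 0 and 1. Upper-quartile factors, no filter and a filter of 1 CPM in 3 libraries gave 15, 22 and 16 genes and the same number of members. A replicate block gave 0 members, 1 gene and Ube2c at 2.60 (edgeR adjusted p = 0.225). Deviations of same-numbered libraries from their group means correlated at -0.081, -0.08 and -0.056. With so few libraries centred on each mean, such values cannot exclude a pairing, and animal 1 of both groups had high Xist counts. Whether the numbers pair the animals is therefore not known. Ube2c was at 2.59 with limma-voom, 2.61 with the Xist covariate and 2.19 with the cornea covariate, none of them called, and ran from 2.35 to 2.83 with a library left out. With 1 library left out, 0 to 11 members and 0 to 795 genes were called, both highest without knockout-labelled animal 1, and 9 to 25 members had an unadjusted p under 0.05, fewest without knockout-labelled animal 3. The cornea covariate left 7 members at that p, with medians of 0.64 for G2 and mitosis and -0.081 for DNA replication. In that fit the sign turned for Cdk6 (-0.35), Ccne2 (-0.87), Cdkn1a (-0.28), Cdkn1c (0.061), Mcm5 (-0.31), Mcm6 (-0.081), Tyms (-0.26), Aurka (-0.36), Bub1 (-1.81), Cenpe (-0.29), Rrm1 (-0.12), Cdk5 (0.10), Fbxo5 (-0.13) and Anapc5 (0.034). Values near 0 turned elsewhere: Pcna with upper-quartile factors (-0.00080), no filter (-0.0075), the block (-0.0015), the red cell covariate (-0.077) and the GC correction (-0.089); Ccnd1 (-0.00022) and Cdkn1b (0.013) with the red cell covariate; Pttg1 (-0.038), Cdk5 (0.0053) and Anapc5 (0.034) with the GC correction; and Anapc5 with the filter of 1 CPM (0.00053). With a library left out, Cdkn1b ran from -0.083 to 0.039, Pcna from -0.12 to 0.14, Anapc5 from -0.077 to 0.062, Ccnd2 from -0.19 to 0.058, Cdk5 from -0.14 to 0.033, Mcm6 from -0.064 to 0.23 and Pttg1 from -0.043 to 0.15. Mitosis genes outside the members with an unadjusted p under 0.05 numbered 26, and 17 with limma-voom. Counts at that p are given over all genes only for the main test. With the red cell precursor covariate, edgeR called 15 of the 52 mitosis and 2 of the 36 replication genes outside the members, all higher. Of the 14 other inhibitors and p53 targets that fit called 2 higher and 2 lower. It called 1 of 15 other cyclins and kinases and 1 of 15 anaphase-promoting complex genes, both higher. Of the 1473 genes called in that fit, 756 were higher, which is 4.79% of all genes, and the rest were lower. The cause of these shifts was not tested. Genes with few reads, such as Bub1 and Ccnb1, have the widest errors.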
